A study of Homo sapiens with 8 samples.

Results

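Transcripts of 10 genes that mark or drive the epithelial-mesenchymal transition (EMT) were followed after silencing of RND3 in U87, a glioblastoma line of human origin. RND3 is also called RhoE. The genes were the cadherins CDH1, CDH2, CDH11 and CDH13, the transcription factors SNAI1, SNAI2, TWIST1, ZEB1 and ZEB2, and FN1, which encodes fibronectin. They were chosen by name, with earlier results of these data known. Their probes were those whose RefSeq transcript accession mapped to a member symbol. This gave 14 probes for the 10 genes, of 42405 probes and 19483 named genes on the array, and 13 probes of 9 members were bright enough to be tested. CDH2, TWIST1, ZEB1 and ZEB2 had 2 probes each, of which the one with the higher mean over the 6 arrays at 24 h is called probe 1, and the other members had 1. For ZEB2 the probes were nearly as bright as each other, and probe 2 was the brighter on both arrays at 48 h.

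Cells were reverse transfected with siRNA against RND3 (RhoE KD in the labels, here siRND3) or with non-silencing siRNA (NSC, here siControl), and all were U87 cells carrying no other stated change. RNA from siRND3 and siControl cells was hybridised to 3 arrays per group at 24 h and to 1 array per group at 48 h, with 1 colour (Cy3). The methods name a pair of siRNA oligos against RND3 without tying either to an array, and no label ties replicates to separate transfections, so p-values measure the spread between these arrays, which may be technical. Values are log2 fluorescence intensity, quantile-normalised over the 8 arrays, and a difference of 1 on this scale is a doubling of intensity. Intensities of different probes are not set against each other.

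Between 68.3% and 70.7% of probes were well above background per array. All 8 arrays lay on 1 slide, with the 4 siRND3 arrays in row 1 and the 4 siControl arrays in row 2, so the position on the slide cannot be told apart from the treatment in any comparison of knockdown with control. Across probes, Pearson correlations at 24 h ranged from 0.988 to 0.991 for arrays of the same group and from 0.985 to 0.988 for arrays of different groups. RND3, the targeted gene, read 11.88, 11.91 and 11.90 on the siControl arrays at 24 h and 10.12, 10.18 and 10.42 on the siRND3 arrays. This was a fall of 3.15-fold (log2 difference -1.66, SE 0.10, limma adjusted p = 0.00034), and the difference at 48 h was -1.65. Of the markers used to check the line, VIM, CD44 and NES were well above background on all 8 arrays, whereas GFAP and SOX2, which astroglial cells express, were so on none and S100B on 1. The leukocyte markers PTPRC (4.92 to 6.50), CD14 (6.32 to 6.84) and CD3E (4.87 to 5.42) were well above background on all 8 arrays. So were the epithelial markers EPCAM (5.13 to 5.92), KRT8 (9.75 to 10.33) and KRT18 (7.30 to 7.94), while KRT5 and KRT14 were so on none. Most probes on each array were well above background, so this alone does not show that such cells were present. At 24 h the endothelial marker PECAM1 was lower in siRND3 cells (-0.99, adjusted p = 0.022), whereas CDH5 (0.31), TEK (0.21) and VWF (-0.06) did not pass. The neuronal marker SNAP25 was lower (-0.42, adjusted p = 0.019), whereas TUBB3 (0.06) did not pass, RBFOX3 was well above background on no array and SYP on 3. PECAM1 and OLIG2 were well above background on 7 of the 8 arrays, with lowest readings of 3.24 and 2.98. Among the glial markers CD44 (-0.58) and OLIG2 (-1.40) were lower and NES (0.41) higher. The part of these shifts in the other results was not tested, and fewer cells with a transcript cannot be told apart from less of it per cell.

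Classical cadherins are calcium-dependent adhesion receptors that join neighbouring cells and are anchored to actin through catenins. In an EMT, factors of the SNAI, ZEB and TWIST families bind E-box sequences in DNA and repress epithelial genes such as CDH1 (E-cadherin), while CDH2 (N-cadherin) and the matrix protein fibronectin often rise. Glial tumours are not epithelial and commonly express N-cadherin rather than E-cadherin, and the same factors are studied there for their part in invasion and in a mesenchymal-like state.

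The E-box letters that SNAI and ZEB proteins bind are CACCTG, or CAGGTG when read on the other strand. They were searched in RefSeq promoter windows of 300 bases (250 before and 50 from the transcript start, assembly GRCh38.p14). Of 35116 windows over all genes, 7231 (20.6%) held either form. The table had windows for 4 members, namely CDH2, ZEB1, ZEB2 and FN1. Of their 11 windows 2 held the letters, and both belonged to ZEB1, which has 7 windows. The 250 bases before the start are given here for the first ZEB1 window, which holds the letters 57 bases before the start. They are also given for ZEB2 and FN1, whose windows lack the letters. Both genes read lower in siRND3 cells at 48 h, with 1 array per group, and ZEB2 was called by its probe 2 alone. Whether the letters go with these readings was not tested. The positions are chr10:31318167-31318416 on the plus strand for ZEB1, chr2:144520120-144520369 on the minus strand for ZEB2 and chr2:215436069-215436318 on the minus strand for FN1. Capitals mark the E-box letters, and each runs 5′ to 3′ towards the start.
ZEB1: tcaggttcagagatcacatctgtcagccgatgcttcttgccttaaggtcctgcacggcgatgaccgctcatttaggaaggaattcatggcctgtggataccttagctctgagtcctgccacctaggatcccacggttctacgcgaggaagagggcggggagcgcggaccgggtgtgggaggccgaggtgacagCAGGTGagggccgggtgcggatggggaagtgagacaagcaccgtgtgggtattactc
ZEB2: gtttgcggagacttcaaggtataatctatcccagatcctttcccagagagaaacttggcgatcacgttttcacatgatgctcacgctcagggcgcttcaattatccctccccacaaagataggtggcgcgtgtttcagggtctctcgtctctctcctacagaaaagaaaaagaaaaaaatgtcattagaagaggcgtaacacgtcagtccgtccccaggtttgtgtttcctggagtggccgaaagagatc
FN1: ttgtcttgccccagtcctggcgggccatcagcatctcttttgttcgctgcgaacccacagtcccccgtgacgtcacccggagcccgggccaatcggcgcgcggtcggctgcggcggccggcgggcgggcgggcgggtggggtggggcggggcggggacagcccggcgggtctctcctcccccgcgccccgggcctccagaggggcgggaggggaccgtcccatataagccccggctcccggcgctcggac
A match of letters is a description of the sequence and does not show binding.

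At 24 h, with 3 arrays against 3, few of these genes moved. CDH11, a cadherin of mesenchymal cells and osteoblasts, was 1.33-fold higher in siRND3 cells, and ZEB2, a repressor of E-cadherin, was 1.31-fold lower by its probe 2. The other 7 tested members, SNAI1 and SNAI2 among them, did not pass the test (limma, Benjamini-Hochberg adjusted p under 0.05 over 28759 probes). A gene counts as higher or lower when at least 1 of its probes passed and none passed in the other direction. By that count 1 of 9 members was higher and 1 lower, beside 7.16% of the 14805 genes tested called higher and 9.26% called lower. Counts this small cannot show whether the members moved more or less often than genes in general. The median log2 difference over the 9 members' first probes was -0.07, against 0.05 over all probes. For 6 of the 13 probes the siRND3 and siControl arrays did not overlap, beside 34.4% of all probes measured on the 6 arrays.

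**Figure D1:**
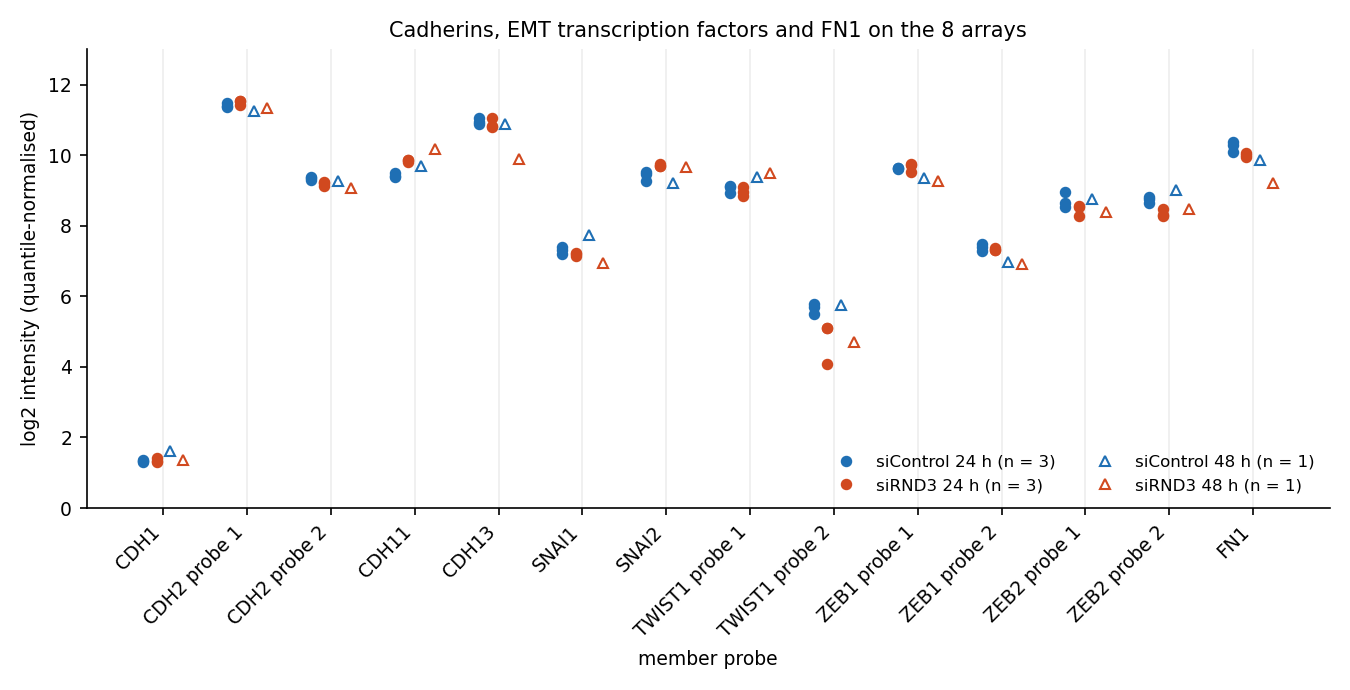
Log2 intensity (vertical axis, quantile-normalised) of the 14 member probes on each of the 8 arrays, with siControl in blue and siRND3 in red, filled circles for 24 h and open triangles for 48 h. Points are single arrays without error bars. CDH11 lay higher and probe 2 of ZEB2 lower on all 3 siRND3 arrays at 24 h, and CDH13 and FN1 were lowest on the siRND3 array at 48 h. Heights of different probes are not comparable.

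CDH1 (E-cadherin, probe A_23_P206359, 10 spots) stayed under the threshold for well above background on each of the 8 arrays. It read 1.31, 1.35 and 1.32 in siControl cells and 1.32, 1.41 and 1.34 in siRND3 cells at 24 h, and 1.62 and 1.37 at 48 h. The lowest signal called well above background on these arrays lay between 2.36 and 2.54, so only an upper bound is known for CDH1 in each group and no fold is given.

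CDH2 (N-cadherin) was measured well above background on all 8 arrays by both of its probes. Probe 1 (A_33_P3214159) read 11.37, 11.47 and 11.40 in siControl cells and 11.54, 11.41 and 11.54 in siRND3 cells at 24 h. Probe 2 (A_23_P38732) read 9.36, 9.39 and 9.30, and then 9.13, 9.22 and 9.25. The groups overlapped for probe 1 and not for probe 2, and the probes differed in sign. The differences were 0.08 (SE 0.08, adjusted p = 0.54) and -0.15 (SE 0.07, adjusted p = 0.24), with a 95% interval for probe 1 of -0.10 to 0.26.

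CDH11 (probe A_23_P152305) read 9.38, 9.50 and 9.42 in siControl cells and 9.80, 9.86 and 9.87 in siRND3 cells at 24 h. All 3 siRND3 arrays lay above all 3 controls. The log2 difference was 0.41 (SE 0.07, 95% interval 0.24 to 0.59, limma adjusted p = 0.016), which lies at the 92.7th percentile of all differences. The exact two-sided permutation test over the 6 arrays gave p = 0.1, the smallest that 3 against 3 arrays can give. Without siControl replicate 1 the adjusted p was 0.071 and without siControl replicate 3 it was 0.079, with differences of 0.39 and 0.41.

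CDH13 (T-cadherin, which is held in the membrane by a lipid anchor and has no cytoplasmic tail) did not pass at 24 h. Its probe (A_32_P85999) read 10.89, 10.94 and 11.05 in siControl cells and 11.05, 10.83 and 10.79 in siRND3 cells. The groups overlapped, with a difference of -0.07 (95% interval -0.31 to 0.16, adjusted p = 0.68).

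Of the SNAI repressors, SNAI1 (probe A_23_P131846) read 7.19, 7.41 and 7.32 in siControl cells and 7.19, 7.24 and 7.13 in siRND3 cells at 24 h. SNAI2 (Slug, probe A_23_P169039) read 9.28, 9.52 and 9.46, and then 9.70, 9.68 and 9.75. The groups overlapped for SNAI1, whereas all 3 siRND3 arrays were above the controls for SNAI2. The difference was -0.12 for SNAI1 (SE 0.08, adjusted p = 0.41). That for SNAI2 was 0.29 (SE 0.09, 95% interval 0.08 to 0.50), and its adjusted p of 0.081 missed the threshold. It was 0.037 after normexp background correction and 0.032 with all 8 arrays in a fit of treatment and time.

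TWIST1, a basic helix-loop-helix factor, had a pair of probes that behaved differently. Probe 1 (A_33_P3414591) read 8.92, 9.14 and 9.10 in siControl cells and 8.85, 9.08 and 8.97 in siRND3 cells at 24 h. Probe 2 (A_23_P71073) read 5.80, 5.50 and 5.69, and then 5.09, 4.08 and 5.10. For probe 1 the groups overlapped (difference -0.08, 95% interval -0.32 to 0.15, adjusted p = 0.64). For probe 2 all siRND3 arrays were lower, and siRND3 replicate 2 lay far below the other two. The difference of -0.91 (SE 0.28, adjusted p = 0.090) missed the threshold, and without that replicate it was -0.57 with an adjusted p of 0.044. Probe 2 was also called by significance analysis of microarrays (SAM), the method of the study, at a false discovery rate of 5%. After normexp correction its difference was -0.28 and in the authors' log2 values it was -0.44.

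ZEB1 and ZEB2 are zinc finger homeodomain repressors of E-cadherin. ZEB1 probe 1 (A_33_P3374723) read 9.60, 9.65 and 9.65 in siControl cells and 9.71, 9.52 and 9.74 in siRND3 cells at 24 h. ZEB1 probe 2 (A_33_P3640690) read 7.41, 7.49 and 7.29, and then 7.31, 7.36 and 7.32. Both overlapped, with differences of 0.03 (95% interval -0.18 to 0.23, adjusted p = 0.87) and -0.07 (95% interval -0.26 to 0.12, adjusted p = 0.62).

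ZEB2 probe 1 (A_33_P3243832) read 8.52, 8.96 and 8.64 in siControl cells and 8.54, 8.28 and 8.56 in siRND3 cells at 24 h. ZEB2 probe 2 (A_23_P142560) read 8.81, 8.76 and 8.66, and then 8.27, 8.29 and 8.48. Both probes were lower on average, and only for probe 2 did the groups not overlap. The difference for probe 1 was -0.25 (SE 0.14, adjusted p = 0.30) and that for probe 2 was -0.39 (SE 0.09, 95% interval -0.61 to -0.18, adjusted p = 0.038). The ZEB2 call was lost when any 1 of the arrays other than siRND3 replicate 3 was left out (siControl replicates 1, 2 and 3 or siRND3 replicates 1 and 2), with differences between -0.44 and -0.36 and adjusted p between 0.085 and 0.12. It was also lost when dim probes were kept in the test (adjusted p = 0.063).

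FN1, the fibronectin gene, had 1 probe (A_24_P334130), annotated with 1 of the 18 RefSeq transcripts the gene table gives for it, and which of the others it reaches is not given. It read 10.28, 10.36 and 10.09 in siControl cells and 9.96, 10.01 and 10.06 in siRND3 cells at 24 h. All 3 siRND3 arrays lay below the controls, the closest pair by a small margin. The difference was -0.24 (SE 0.09, 95% interval -0.46 to -0.02), with an adjusted p of 0.16.

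At 48 h there was 1 array per group, and the test took its spread from the arrays at 24 h, on the assumption that the lone arrays vary like those. CDH13 was 2.01-fold lower, SNAI1 1.73-fold lower, FN1 1.58-fold lower and ZEB2 1.47-fold lower by probe 2 in siRND3 cells, and CDH11 was 1.39-fold higher. That made 1 of 9 members higher, beside 14.3% of genes tested, and 4 of 9 lower, beside 13.3% of genes tested. The median difference over the members' first probes was -0.07, against 0.05 over all probes.

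CDH13 read 10.88 on the siControl array at 48 h and 9.88 in siRND3 cells, and the difference was -1.01 (SE 0.17, 95% interval -1.41 to -0.60, limma adjusted p = 0.0089). SNAI1 read 7.74 and 6.96, a difference of -0.79 (SE 0.15, adjusted p = 0.013). Both remained called when each array at 24 h was left out in turn and under every other setting tried at 48 h. Leaving out an array at 24 h changes only the spread, as both lone arrays at 48 h stay in. It could not show whether either of these was unusual. The difference of SNAI1 was smaller after normexp correction (-0.49) and in the authors' log2 values (-0.58). FN1 read 9.86 and 9.20, a difference of -0.66 (SE 0.16, adjusted p = 0.034). CDH11 read 9.70 and 10.17, a difference of 0.48 (SE 0.12, adjusted p = 0.041). These were nearer the threshold. FN1 lost its call without siControl replicate 1 or siRND3 replicate 2, and when dim probes were kept in the test. CDH11 lost its call without siControl replicate 1, 2 or 3 or siRND3 replicate 2 or 3.

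ZEB2 probe 2 read 9.02 and 8.46 at 48 h, a difference of -0.56 (SE 0.15), and its adjusted p of 0.04997 lay at the threshold. The call was lost without siControl replicate 1, 2 or 3 or siRND3 replicate 1 or 2, and when dim probes were kept in the test. ZEB2 probe 1 read 8.75 and 8.40 (difference -0.35, adjusted p = 0.40). SNAI2 read 9.21 and 9.67, a difference of 0.46 (95% interval 0.09 to 0.82) with an adjusted p of 0.088. The ZEB1 probes read 9.34 and 9.27, and 6.98 and 6.91, with differences of -0.07 each. The CDH2 probes differed by 0.09 and -0.17, and again had opposite signs. TWIST1 probe 1 differed by 0.11, a direction that turned after normexp correction (-0.03) and in the authors' log2 values (-0.03). TWIST1 probe 2 read 5.76 and 4.72, and its difference of -1.04 had a 95% interval of -2.20 to 0.12 (adjusted p = 0.21) and an adjusted p of 0.015 without siRND3 replicate 2. After normexp correction it was -0.38 and in the authors' log2 values -0.59.

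**Figure D2:**
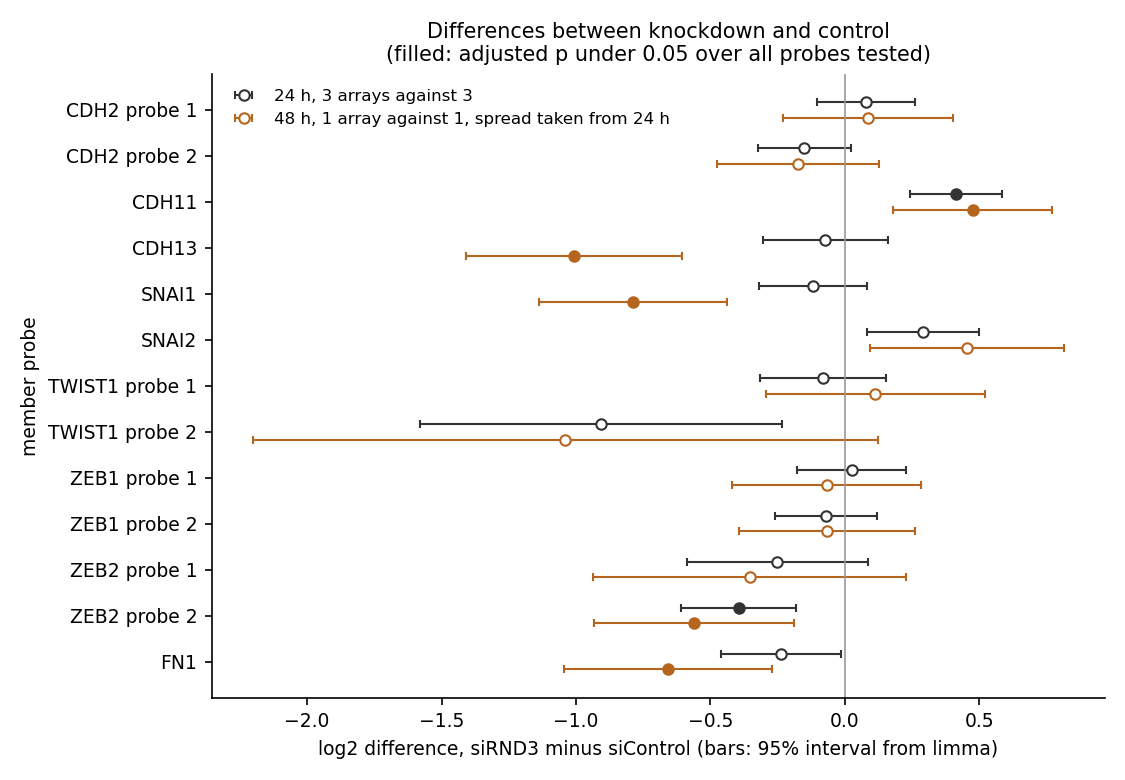
Log2 difference between siRND3 and siControl (horizontal axis) for the 13 tested member probes at 24 h (black) and 48 h (orange), with 95% intervals from limma and filled circles where the adjusted p was under 0.05. CDH11 and probe 2 of ZEB2 are filled at both times, whereas CDH13 (-1.01), SNAI1 (-0.79) and FN1 (-0.66) are filled at 48 h alone. The intervals at 48 h are wider since each group had 1 array.

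Whether the knockdown difference itself changed between 24 h and 48 h was tested in the same fit. No member passed in either direction, where 1.68% of genes tested were called with a higher difference at 48 h and 2.56% with a lower one. At an unadjusted p under 0.05 there were 0 members higher and 2 lower, CDH13 and SNAI1. CDH13 changed from -0.07 at 24 h to -1.01 at 48 h, a shift of -0.93 (SE 0.19, 95% interval -1.40 to -0.47, adjusted p = 0.064). Its adjusted p was 0.019 after normexp correction and 0.031 in the authors' log2 values. SNAI1 shifted by -0.67 (SE 0.17, adjusted p = 0.097) and FN1 by -0.42 (SE 0.19, adjusted p = 0.30). The shifts of CDH11 (0.06, 95% interval -0.28 to 0.41) and ZEB2 probe 2 (-0.17, 95% interval -0.59 to 0.26) were within their error. A member called at 48 h and not at 24 h has therefore not been shown to differ between the times.

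The same arrays give the change with time in each treatment. In siControl cells no member passed between 24 h and 48 h, where 1.19% of genes tested were called higher and 3.99% lower, and at an unadjusted p under 0.05 there were 2 members higher (CDH11 and SNAI1) and 2 lower (ZEB1 and FN1). SNAI1 was 0.44 higher at 48 h (SE 0.12, adjusted p = 0.10) and ZEB1 probe 2 differed by -0.42 (SE 0.11, adjusted p = 0.10). In siRND3 cells 0 members were called higher and 2 lower with time, beside 3.61% and 9.19% of genes tested. CDH13 fell by 1.01 (SE 0.14, 95% interval -1.34 to -0.68, adjusted p = 0.0096) and FN1 fell by 0.80 (SE 0.13, 95% interval -1.12 to -0.49, adjusted p = 0.016). In siControl cells the corresponding differences were -0.08 for CDH13 and -0.38 for FN1. SNAI1 differed by -0.23 with time in siRND3 cells (adjusted p = 0.27), so that its lower reading at 48 h came with a control array that read higher than at 24 h. TWIST1 probe 1 was 0.52 higher at 48 h than at 24 h in siRND3 cells and 0.32 higher in siControl cells, with adjusted p of 0.071 and 0.25. These comparisons share the arrays of each group, so they are not independent of those above.

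Genes that act with the members were counted in 6 lists. The counts at 24 h stand beside 7.16% of all genes tested called higher and 9.26% called lower. Those at 48 h stand beside the shares over all genes given above with the members at 48 h. Of 19 other cadherins 10 were tested, and 6 (CDH8, CDH10, CDH17, CDH19, CDH20 and CDH26) did not reach well above background anywhere. At 24 h 1 was higher and 0 lower, where 3 were higher and 3 lower at an unadjusted p under 0.05, and the list's median difference was 0.02 against 0.04 over all genes. CDH18, a cadherin of the nervous system, read 8.36 ± 0.09 in siControl and 8.78 ± 0.08 in siRND3 cells (SD, n = 3), a log2 difference of 0.42 (adjusted p = 0.026), and the difference at 48 h was 2.03 (adjusted p = 0.00054). At 48 h CDH3 (P-cadherin) was also higher (0.93) and CDH4 (R-cadherin) lower (-1.57).

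Of 12 genes in the list of cadherin-catenin linkers, which holds catenins and proteins that act with them, 10 were tested. VCL, which encodes vinculin, was lower at both times and was the only one of them called, with 0 higher also at an unadjusted p under 0.05. It read 12.13 ± 0.10 in siControl and 10.95 ± 0.16 in siRND3 cells at 24 h (SD, n = 3), a difference of -1.18 (adjusted p = 0.0014), and the difference at 48 h was -1.88. The brighter probes of the catenins CTNNB1 (-0.07), CTNNA1 (-0.12) and CTNND1 (0.02) did not pass at 24 h, and the list's median was -0.09 at 24 h and -0.05 at 48 h.

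Of 15 other EMT transcription factors on the array 13 were tested, and 1 was higher and 1 lower at 24 h. HMGA2, an architectural chromatin protein, read by its brightest probe 12.93 ± 0.05 in siControl and 11.96 ± 0.07 in siRND3 cells (SD, n = 3), a difference of -0.97 (SE 0.07, adjusted p = 0.00081), and differed by -3.02 at 48 h. Its other 2 probes did not pass at either time, with differences of -0.10 and 0.20 at 24 h and of -0.47 and -0.33 at 48 h. TCF3, which encodes the E2A proteins, read 10.96 ± 0.02 and 11.74 ± 0.07, a difference of 0.77 (SE 0.07, adjusted p = 0.0017), and differed by 1.50 at 48 h. GATA6 (-0.85) was lower and TCF4 (0.72) higher at 48 h. The median was -0.18 at 24 h and -0.24 at 48 h, against 0.04 and 0.06 over all genes.

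**Figure D3:**
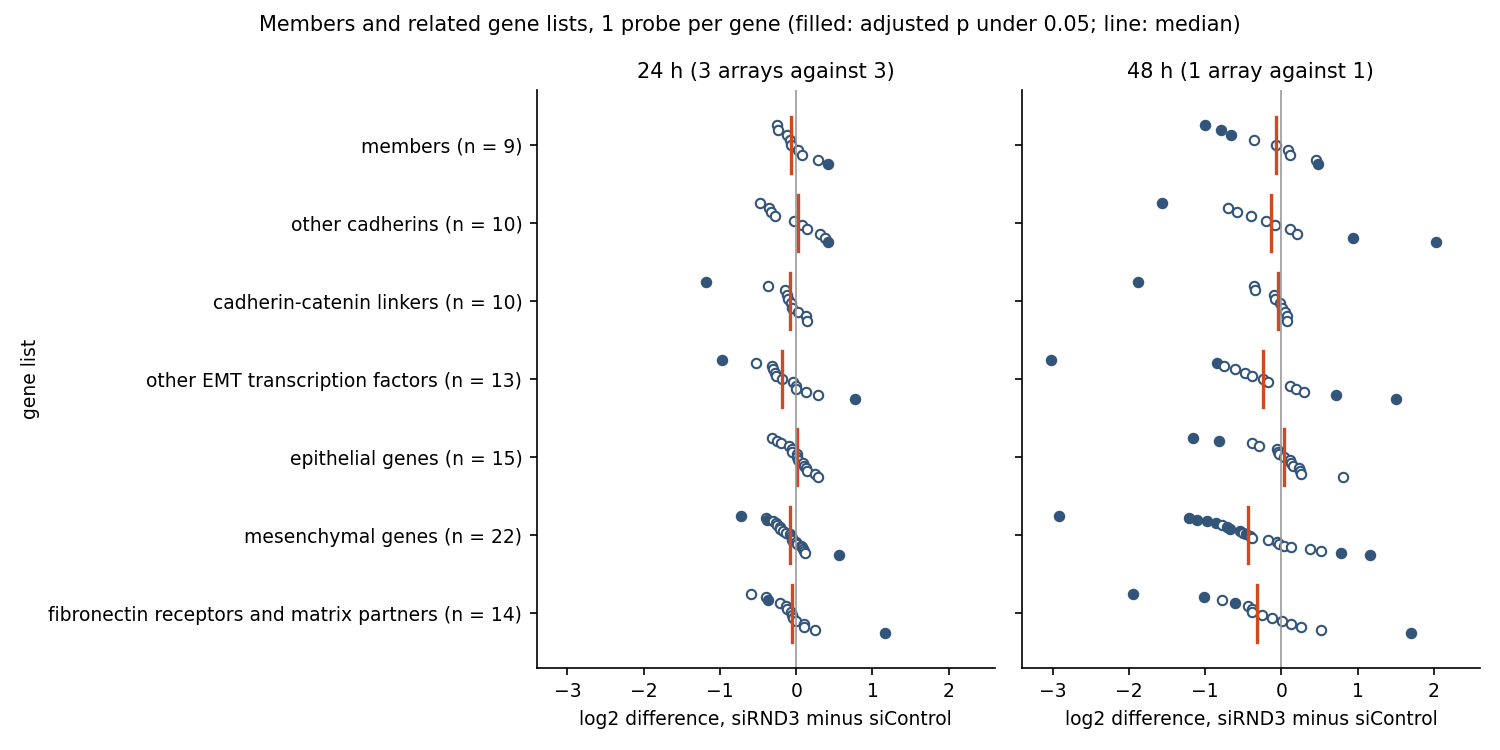
Log2 difference between siRND3 and siControl (horizontal axes) at 24 h (left) and 48 h (right) for the members and 6 related gene lists, 1 point per gene from its tested probe of highest mean at 24 h, filled where the adjusted p was under 0.05, with the median of each list as a red line. ZEB2 is shown by probe 1, which did not pass. At 48 h the mesenchymal list had its median at -0.44 and MMP2 at -2.92, while epithelial genes had a median of 0.03.

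Of 24 epithelial genes on the array 9 (OCLN, CLDN1, DSP, OVOL1, OVOL2, ELF3, RAB25, CRB3 and PATJ) did not, like CDH1, reach well above background anywhere. Of the 15 tested, 0 were called at 24 h by limma, where at an unadjusted p under 0.05 there were 0 higher and 3 lower. At 48 h 0 were higher and 2 lower, the tight junction gene CLDN4 (-0.82, adjusted p = 0.0094) and the desmosomal gene PKP3 (-1.16, adjusted p = 0.0034). The share of the list called lower at 48 h was the same as that over all genes tested. The list's median was 0.02 at 24 h and 0.03 at 48 h.

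Of 24 mesenchymal genes 22 were tested, with 1 higher and 2 lower at 24 h. COL5A1, a fibrillar collagen chain, was 0.56 higher by its brighter probe (adjusted p = 0.0078). MMP2, a gelatinase, read 11.84 ± 0.11 in siControl and 11.12 ± 0.09 in siRND3 cells (SD, n = 3), a difference of -0.72 (adjusted p = 0.0050). LOX, which cross-links collagen, was lower, with a difference of -0.38 (adjusted p = 0.026). At 48 h 2 were higher (COL5A1 and THY1) and 9 lower (MMP2, LOX, FSTL1, NT5E, ACTA2, FAP, MMP14, S100A4 and TGFBI), which is 9.09% and 40.9% of those tested beside 14.3% and 13.3% of all genes. MMP2 differed by -2.92 at 48 h. Each group had 1 array at 48 h, and the list was chosen with earlier results of these data known. The shares at 48 h are therefore a description of the list and no independent test of it. VIM, which encodes vimentin, did not pass at 24 h (-0.08) and differed by -0.18 at 48 h.

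All 14 receptors and matrix partners of fibronectin were tested, of which ITGA5, TNC and FBN1 also stand in the mesenchymal list. At 24 h 1 was higher and 1 lower. SDC4, a syndecan that acts with integrins at fibronectin contacts, read 10.97 ± 0.04 in siControl and 12.13 ± 0.16 in siRND3 cells (SD, n = 3), a difference of 1.16 (SE 0.10, adjusted p = 0.0011), and differed by 1.70 at 48 h. ITGB3 (integrin beta 3) was lower by 1.29-fold at 24 h (difference -0.37, adjusted p = 0.024) and differed by -1.02 at 48 h. The integrin chains of the main fibronectin receptor, ITGA5 (0.10) and ITGB1 (-0.07), did not pass at 24 h. At 48 h ITGA4 (1.01) was higher, and LTBP1 (-0.61) and TGM2 (-1.95) were lower, each by 1 probe. The other probes of these genes did not pass, with differences of 0.51 and 0.64 for ITGA4, -0.57 for LTBP1 and -0.22 for TGM2, whose probes had opposite signs at 24 h (-0.59 and 0.21). The median was -0.06 at 24 h and -0.32 at 48 h.

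**Figure D4:**
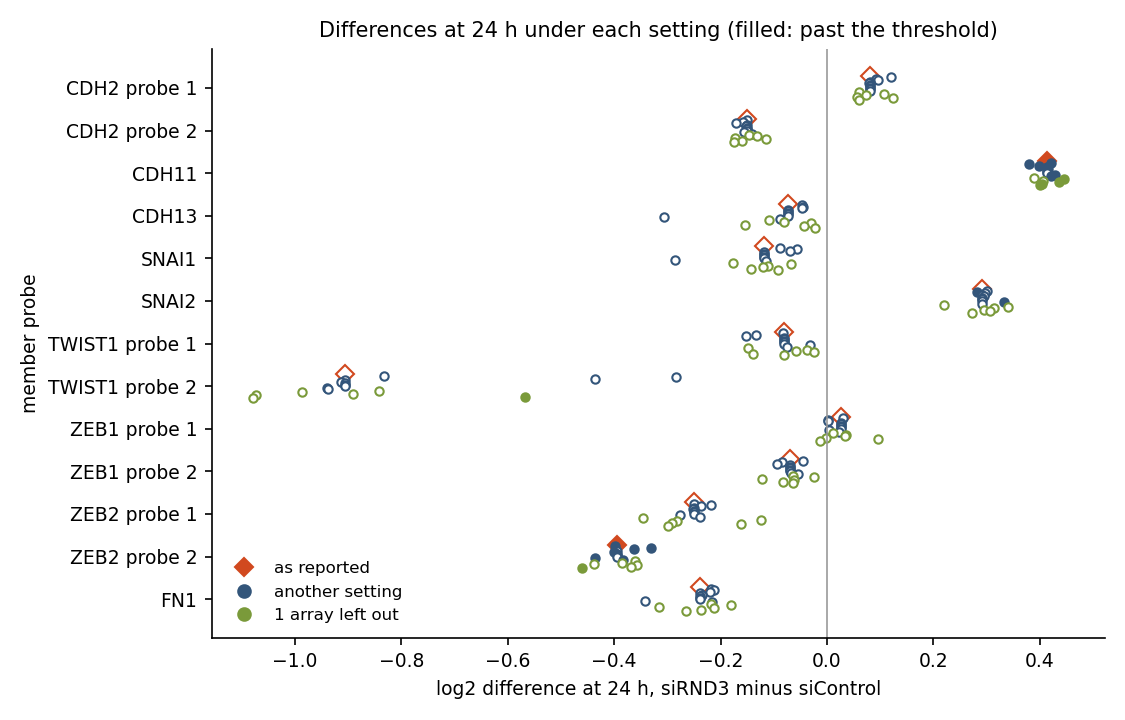
Log2 difference at 24 h (horizontal axis) for each tested member probe as reported (red diamonds), under other processing settings (blue circles) and with 1 array left out (green circles), filled where the setting's threshold was passed. The difference of CDH11 stayed between 0.38 and 0.45 and that of ZEB2 probe 2 between -0.46 and -0.33, whereas TWIST1 probe 2 ranged from -1.08 to -0.28.

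Over the 8 arrays, the genes whose log2 values ran closest to each member's first probe were found among 18120 candidates, as a description in which all points share the same libraries and the treatment. For CDH13 these were RPRD1A (Pearson r = 0.995) and FKBP9 (r = 0.986). For CDH11 they were SNX21 (r = 0.989) and YOD1 (r = 0.988), and for CDH2 JPH1 (r = 0.989) and JPT2 (r = 0.988). The values of SNAI1 ran closest to BGLAP and ASIC1 (r = 0.986 and 0.983) and those of SNAI2 to POLR2I and BCL7A (r = 0.981 and 0.978). FN1 was most like CEACAM1 and SSPN (r = 0.986 and 0.983), and ZEB1 most like ERLIN2 and UTP18 (r = 0.987 and 0.986). The best matches were weaker for ZEB2 (CLIC4, r = 0.962, and MIRLET7BHG, r = 0.931) and TWIST1 (TENT5A and AQP9, both r = 0.962). No member was among the matches of another.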

How the data were processed

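Total RNA of U87 cells was measured on 8 Agilent human arrays with 1 colour. The authors ran Agilent Feature Extraction 10.7.3.1, and the deposited files hold linear spot intensity, corrected for background within each array per the file headers. The authors also deposited log2 values, taken as spot medians without background subtraction since they rank exactly as the spot medians do. The methods state quantile normalisation, which the ranks cannot show. Here the 58717 spots that were not controls were log2 transformed from the processed intensity and quantile-normalised together, outlier spots were dropped, spots of a probe were averaged, and a probe was well above background on an array when at least 50% of its spots were. A probe entered the test when siRND3 or siControl cells at 24 h had it so on each of their 3 arrays.

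Symbols came from RefSeq accessions (25422 probes matched). The array was annotated on hg19, so no coordinates of probes or genes are given; those of promoter windows are from RefSeq, GRCh38.p14. Tests used limma 3.58.1 in R 4.3.3, on 6 arrays at 24 h and in a model with 4 groups otherwise. The scripts were tested on simulated data. The number of arrays limits the precision. Alternatives were 75th percentile scaling, normexp (offset 50, run on the spot median in place of the planned mean), the authors' log2 values, other filters, SAM, a replicate block (that in the model with 4 groups was chosen after seeing the data), array weights, all 8 arrays, the mean of a gene's probes, normalisation over 6 arrays and each array left out.

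The members and lists were chosen with earlier results of these data known. Named were RND3, all members, up to 3 rises and 3 falls per list at 24 h, and each member's 2 closest genes; genes called at 48 h, catenins, ITGA5, ITGB1 and VIM were named after their values were seen. Of the cell type markers checked, 1 is not reported here.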

Additional observations from a re-analysis of the deposited data

Results flagged for a closer look

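By at least 1 probe, the genes below from the related lists were called by the interaction test of limma for a changed knockdown difference. Each group had 1 array at 48 h, and the spread came from the arrays at 24 h. Only genes named for 24 h or called at 48 h were screened, so these genes give no share of the lists. Over the array, most calls of this test were lost when any 1 array at 24 h was left out. Nearly all were lost when it was a siControl array, and all with the replicate block. The difference of the gelatinase gene MMP2 was -0.72 at 24 h and -2.92 at 48 h, a change of -2.20 (adjusted p = 0.012). That of HMGA2 was -0.97 and -3.02, a change of -2.05 by its brightest probe (adjusted p = 0.0098), while its other 2 probes changed by -0.38 (adjusted p = 0.62) and -0.53 (adjusted p = 0.12). That of CDH18 was 0.42 and 2.03, a change of 1.61 (adjusted p = 0.018). Among the other cadherins CDH4 changed by -1.29 (adjusted p = 0.038) and CDH3 by 0.86 (adjusted p = 0.045). The desmosomal gene PKP3 changed by -1.07 (adjusted p = 0.037). In the mesenchymal list FSTL1 changed by -0.95 (adjusted p = 0.048) and NT5E by -0.93 through 1 of its probes (adjusted p = 0.045), while its other probe changed by -0.67 (adjusted p = 0.13).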

How the results depend on the processing

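Of 850 values recomputed under other settings, 773 kept their direction and their side of the threshold. A further 13 passed it anew, 29 no longer passed and 35 changed sign, and the causes were not tested. Differences at 48 h could not change when an array at 24 h was left out, so their direction there was fixed. At 24 h the members called higher numbered 2 after normexp correction and with all 8 arrays, and 0 to 1 with an array left out. Those called lower numbered 0 without the filter on dim probes and with the mean of a gene's probes, 2 by SAM and with all 8 arrays, and 0 to 1 with an array left out. At 48 h 2 were higher after normexp correction, 2 were lower without the filter, and leaving out an array gave 0 to 1 higher and 2 to 4 lower. The interaction gave 1 lower after normexp correction and in the authors' log2 values, and time in siRND3 cells gave 2 and 1 higher. In the lists at 24 h, other cadherins had 2 higher with 75th percentile scaling and in the authors' values, other EMT factors 2 lower after normexp correction and in the authors' values, epithelial genes 1 lower in both of these, mesenchymal genes 5 lower after normexp correction and fibronectin partners 2 lower in the authors' values.

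Same-numbered arrays at 24 h deviated together at r = 0.0020, -0.012 and 0.13, and not every array correlated best with its own number. The deviations were taken from group means of 3 arrays, so this cannot settle whether the numbers pair the arrays. At 24 h, arrays with the same number also lay in the same column of the slide. With the replicate block 0 members were called higher and 0 lower at 24 h (1651 probes called, against 3350), with an adjusted p of 0.060 for CDH11 and 0.11 for ZEB2 probe 2. In the fit with 4 groups the block, added after seeing the data, left 0 members higher and 2 lower at 48 h (3505 probes called, against 5452), with an adjusted p of 0.10 for CDH11, 0.089 for FN1 and 0.13 for ZEB2 probe 2. It left 0 lower with time in siRND3 cells, with an adjusted p of 0.075 for CDH13 and 0.10 for FN1. With it, time gave -0.14 for TWIST1 probe 2 in siControl cells and 0.033 for SNAI2 in siRND3 cells, both of the opposite sign.

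Signs changed only in differences that had not passed. With the mean of a gene's probes at 24 h, CDH2 differed by -0.035 and ZEB1 by -0.021. For TWIST1 probe 1 at 48 h normexp correction gave -0.026 and the authors' values -0.034. In the interaction, CDH2 probe 1 gave -0.0019 with percentile scaling, -0.050 after normexp correction and -0.050 in the authors' values, and CDH2 probe 2 gave 0.011 and 0.0071 after normexp correction and in the authors' values. There ZEB1 probe 2 gave -0.047 with percentile scaling, and ZEB2 probe 1 gave 0.014 after normexp correction and 0.016 in the authors' values. For time, ZEB2 probe 1 gave -0.0089 and -0.0081 in siControl cells and 0.0049 and 0.0074 in siRND3 cells after normexp correction and in the authors' values, and TWIST1 probe 2 gave 0.033 in siRND3 cells with percentile scaling. With an array left out, ZEB1 probe 1 ranged from -0.013 to 0.096 at 24 h. In the interaction RND3 ranged from -0.053 to 0.094, CDH2 probe 1 from -0.039 to 0.029, CDH2 probe 2 from -0.058 to 0.0023, TWIST1 probe 2 from -0.47 to 0.041 and ZEB1 probe 2 from -0.042 to 0.056. For time, ZEB2 probe 1 ranged from -0.052 to 0.17 in siControl cells and TWIST1 probe 2 from -0.38 to 0.13 in siRND3 cells.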
